A study of Mus musculus with 19 samples.

Results

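The transcripts described here are those of the mouse mitochondrial genome. Members were all genes that the deposited table places on the mitochondrial chromosome (chrM), which were 37 of 39017 genes: 13 protein-coding genes, 2 ribosomal RNA (rRNA) genes and 22 transfer RNA (tRNA) genes. The RNA came from E0771 cells, a mammary carcinoma line of the C57BL/6 strain, which carried the red fluorescent protein mCherry and were implanted at the same number into the mammary fat pad of c57bl6 mice that were lean (named chow in the labels) or obese (named HFD). Tumors were taken at day 14 (midpoint) or day 21 (endpoint), dissociated, and sorted for mCherry-positive cells before total RNA was extracted, so every group shared the tumor line, the implantation and the sort. There were 4 lean midpoint, 5 obese midpoint, 4 lean endpoint and 5 obese endpoint libraries. The deposited table also has lean endpoint replicate 4, with 11889188 counts in all and 0 on chrM, which was left out, so 18 of 19 libraries were used. The labels name the libraries by group and number only and do not say whether each came from a separate animal, so p-values measure the spread between these libraries.

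The mitochondrial genome is a small circle that is transcribed on both strands into long precursor RNAs by a dedicated polymerase, and the tRNAs that lie between the longer genes are cut out so that the rRNAs and messenger RNAs are released. Its protein-coding genes encode core subunits of respiratory complexes I, III and IV and of ATP synthase (complex V), while all other subunits, and every protein that transcribes, cuts, modifies and degrades mitochondrial RNA, are encoded in the nucleus. Copies of mitochondrial DNA that were inserted into nuclear chromosomes, some of them annotated as pseudogenes, can carry the same letters, and a short read then has more than 1 possible origin.

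The sequences that the values below turn on are of 2 kinds. The first set holds the tRNA genes mt-Tp, mt-Tc and mt-Tn, which held nearly all tRNA counts, and mt-Ty, which lies 2 bases from mt-Tc on the same strand and was nearly empty. They are given 5′ to 3′ in the sense of the tRNA gene, from the GENCODE annotation of the mm10 assembly (chrM:15356-15422, chrM:5192-5257, chrM:5089-5159 and chrM:5260-5326, all on the minus strand).
mt-Tp: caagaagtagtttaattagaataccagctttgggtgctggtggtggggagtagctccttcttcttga
mt-Tc: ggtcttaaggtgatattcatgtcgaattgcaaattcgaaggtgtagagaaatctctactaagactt
mt-Tn: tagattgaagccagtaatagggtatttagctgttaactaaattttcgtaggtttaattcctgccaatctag
mt-Ty: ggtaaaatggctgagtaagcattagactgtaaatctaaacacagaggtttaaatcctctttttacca
The second set holds the first 60 bases of mt-Co2 (chrM:7013-7072, plus strand) and mt-Nd3 (chrM:9459-9518, plus strand), each above its pseudogene on chromosome 1, minus strand (Gm28661, chr1:24615506-24615565, and Gm28438, chr1:24613060-24613119). They are shown because these genes were among 6 adjacent protein-coding genes that were nearly empty. A capital marks the only base that differs within the 60: T3C in mt-Nd3, counted from 1 at the first base of the gene, and none in mt-Co2.
mt-Co2: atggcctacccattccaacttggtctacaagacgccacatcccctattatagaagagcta
Gm28661: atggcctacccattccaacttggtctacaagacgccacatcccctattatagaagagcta
mt-Nd3: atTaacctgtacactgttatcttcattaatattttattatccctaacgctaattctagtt
Gm28438: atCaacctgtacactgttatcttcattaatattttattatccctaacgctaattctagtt

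The 18 libraries held 44174080 to 56996252 counts each. Replicate 1 of lean endpoint stood apart from all other libraries on chrM, and results that rest on it are given with and without it. Of 8 epithelial markers, 7 had a mean below 1 CPM (the count scaled to the library total) and Krt8, a keratin, had nearly all of their counts, so the carcinoma label was not borne out by most of the listed epithelial genes. The mCherry gene itself was not analysed here. Summed CPM of 16 macrophage and monocyte markers, all of them detected in every library, were 308 to 749 in lean midpoint, 243 to 413 in obese midpoint, 162 to 411 in lean endpoint and 139 to 735 in obese endpoint. The most abundant of these, Cd68 and Ctss, had mean levels of 90.0 and 99.1 CPM in lean midpoint. The 10 pan-leukocyte markers, of which Arhgdib held most counts, summed to 1212 to 1391 CPM in lean midpoint, 1358 to 1632 in obese midpoint, 593 to 914 in lean endpoint and 657 to 882 in obese endpoint, so this sum was lower in every endpoint library than in every midpoint library. Arhgdib had a mean of 1310 CPM in obese midpoint and 641 in obese endpoint. The means of Ptprc (1.18 and 11.6 CPM), Cd53, Cd48 and Lcp1 were higher at endpoint in obese mice, and those of the remaining markers were lower. In lean mice only Ptprc was higher at endpoint. The sum therefore does not describe each marker. Of 10 T and NK cell markers, 9 had a mean below 1 CPM. The part that other cells in the sort played in the chrM values was not tested. In bulk RNA of this kind, fewer cells of a type and less RNA per cell cannot be told apart.

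The mitochondrial genome gave a far larger share of the counts at endpoint than at midpoint in both hosts. In lean mice, chrM held 9.84%, 10.5%, 12.3% and 8.95% of all counts in the 4 midpoint libraries and 44.7%, 17.1%, 23.2% and 20.7% in the 4 endpoint libraries. In obese mice it held 7.80%, 5.93%, 5.79%, 8.06% and 7.20% at midpoint and 23.0%, 17.1%, 20.4%, 24.4% and 24.4% at endpoint. Every endpoint library was above every midpoint library, and the means were 10.4% ± 1.41 (SD, n = 4) and 26.4% ± 12.4 (SD, n = 4) in lean mice and 6.96% ± 1.05 (SD, n = 5) and 21.9% ± 3.13 (SD, n = 5) in obese mice, ratios of 2.54 and 3.14. Without replicate 1, the lean endpoint mean was 20.3%. At midpoint every obese library lay below every lean library, whereas at endpoint the groups overlapped.

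**Figure D1:**
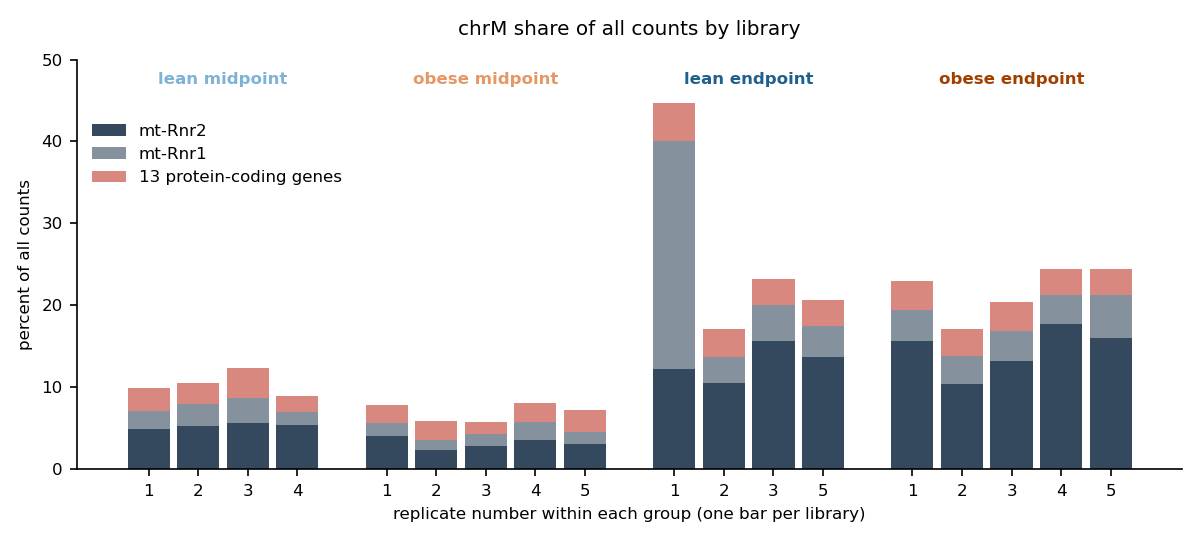
Percent of all counts on chrM in each of 18 libraries (1 bar per library, y axis in percent, from 0), split into mt-Rnr2, mt-Rnr1 and the 13 protein-coding genes; the tRNA genes, below 0.01%, are not drawn. All 9 endpoint bars are higher than all 9 midpoint bars, and mt-Rnr1 alone makes up 27.9% of all counts in lean endpoint replicate 1.

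The 2 rRNAs made up most of that gap. mt-Rnr2, the large-subunit (16S) rRNA, held 5.29% ± 0.319 of all counts in lean midpoint (SD, n = 4), 13% ± 2.18 in lean endpoint (SD, n = 4), 3.15% ± 0.677 in obese midpoint (SD, n = 5) and 14.6% ± 2.86 in obese endpoint (SD, n = 5). mt-Rnr1, the small-subunit (12S) rRNA, held 2.25%, 2.64%, 3.04% and 1.69% in lean midpoint, 1.56%, 1.27%, 1.51%, 2.24% and 1.45% in obese midpoint, 27.9%, 3.14%, 4.32% and 3.85% in lean endpoint, and 3.86%, 3.50%, 3.59%, 3.48% and 5.24% in obese endpoint. Of the difference between endpoint and midpoint means of the chrM share, the rRNAs accounted for 94.4% in lean and 92.3% in obese mice. In obese mice mt-Rnr2 alone accounted for 76.7% of it. The 13 protein-coding genes together held 2.70% ± 0.692 of all counts in lean midpoint, 2.20% ± 0.412 in obese midpoint, 3.6% ± 0.662 in lean endpoint and 3.35% ± 0.184 in obese endpoint (SD, n = 4, 5, 4 and 5), with all obese endpoint libraries above all obese midpoint libraries and an overlap in lean mice. The tRNA genes held 0.00309% to 0.00816% of all counts in the 18 libraries, with no separation of the groups.

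Composition within chrM moved with the rRNAs. The protein-coding genes were 25.7% ± 3.46 of chrM counts in lean midpoint (SD, n = 4) and 14.9% ± 4.07 in lean endpoint (SD, n = 4), and 31.8% ± 5.86 in obese midpoint (SD, n = 5) and 15.6% ± 2.67 in obese endpoint (SD, n = 5). Every endpoint library was below every midpoint library. Of the protein-coding counts alone, mt-Co1, the catalytic subunit of complex IV, held the largest part in every library: 58.1% ± 2.82 in lean midpoint, 49.2% ± 3.94 in obese midpoint, 63.0% ± 5.26 in lean endpoint and 69.0% ± 3.02 in obese endpoint (SD, n = 4, 5, 4 and 5). mt-Nd1, a membrane subunit of complex I, moved the other way, with 13.4% ± 2.23, 20.2% ± 2.75, 11.1% ± 1.32 and 8.12% ± 0.957 in the same order. Its part was higher in every obese than in every lean library at midpoint and lower in every obese than in every lean library at endpoint.

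Per gene length, the members differed widely. In CPM per kilobase of gene length, averaged over the 18 libraries, mt-Rnr2 stood at 56824 and mt-Rnr1 at 44512, followed by mt-Co1 at 11621, mt-Nd1 at 3838, mt-Cytb (the complex III subunit) at 3379 and mt-Nd2 (complex I) at 1673. The complex I genes mt-Nd5, mt-Nd6 and mt-Nd4 stood at 735, 486 and 418. The means of mt-Rnr1 and mt-Nd6 include lean endpoint replicate 1, with 292141 and 2388. By group, mt-Nd6 stood at 408 in lean midpoint, 313 in obese midpoint and 416 in obese endpoint, below mt-Nd4 at 414, 368 and 442. In lean endpoint, which holds that library, mt-Nd6 stood at 868 and mt-Nd4 at 453. mt-Nd6 is the only protein-coding gene read from the other strand. The remaining 6 protein-coding genes lay next to each other between chrM 7013 and 10173 and were nearly empty, at 11.2 or less. mt-Co2, a core subunit of complex IV, had 4 to 168 counts per library, mt-Atp6 and mt-Atp8 of ATP synthase had 7 to 110 and 1 to 10, mt-Co3 of complex IV had 7 to 66, and the complex I genes mt-Nd3 and mt-Nd4l had 138 to 255 and 3 to 23. All 6 together had 187 to 589 counts in a library, against 2559816 to 23372357 counts for all of chrM.

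That stretch is the part of chrM that is also annotated on chromosome 1. A block of 7 pseudogenes at chr1:24611535-24616197 (4663 bases, minus strand) follows the order of mt-Co1 (its last part), mt-Co2, mt-Atp6, mt-Co3, mt-Nd3, mt-Nd4l and mt-Nd4 (its first part). The copy of mt-Co2 was identical over 681 of 681 aligned bases, that of mt-Atp6 over 678 and that of mt-Co3 over 783, and the first bases printed above show this for mt-Co2. Of all 50-base words in each gene, 100% in mt-Co2, 99.5% in mt-Atp6, 99.9% in mt-Co3, 98.0% in mt-Nd3 and 98.8% in mt-Nd4l occurred exactly in an annotated nuclear transcript, against 62.2% in mt-Nd4, 51.1% in mt-Co1, 8.19% in mt-Nd2, 7.61% in mt-Nd5, 1.04% in mt-Rnr2 and 0% in mt-Rnr1, mt-Nd1, mt-Nd6, mt-Cytb and all 22 tRNA genes. mt-Atp8 also had 0%, since no pseudogene is annotated there, but the unannotated gap between the copies of mt-Atp6 and mt-Co2 is 233 bases long, as is the spacing on chrM. Of the 7 pseudogenes only Gm10222, the copy of mt-Nd4l, was among the genes of the table, with 7 to 18 counts per library. How the authors treated reads with several origins is not given in the sources used here, so the levels of these 6 genes, and of mt-Co1 and mt-Nd4 in part, are uncertain, and the part of multiple origins in them was not tested.

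**Figure D2:**
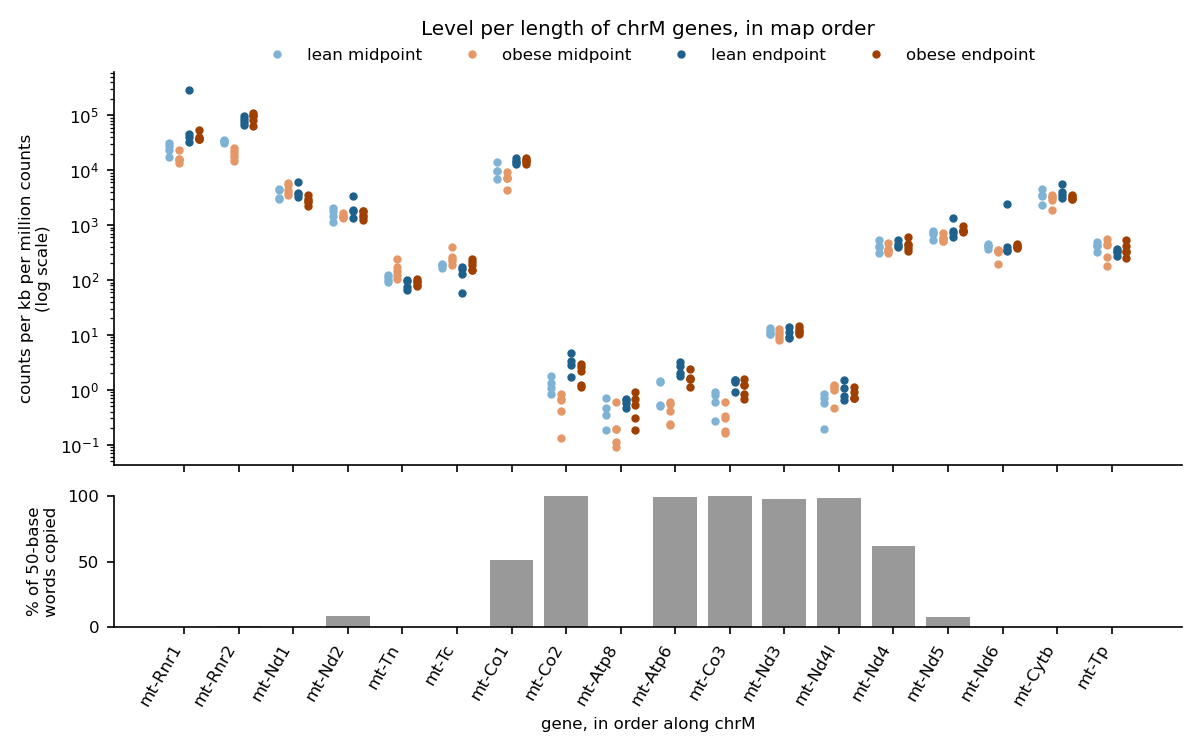
Upper panel, level of the 15 rRNA and protein-coding genes and 3 tRNA genes in map order, in CPM per kilobase on a log scale (1 point per library, colored by group); lower panel, percent of each gene's 50-base words found exactly in an annotated nuclear transcript. The 6 genes from mt-Co2 to mt-Nd4l sit at 11.2 or below on average, and 5 of them have 98.0% or more of their words copied.

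Among the 22 tRNA genes, 8 had no count in any of the 18 libraries. mt-Tp (the tRNA for proline), mt-Tc (cysteine) and mt-Tn (asparagine) together had 42390 counts summed over libraries, and the other 19 genes together had 227, with at most 14 for a single gene in any library. The 3 stood at 373, 195 and 111 CPM per kilobase. All 3 belong to the 8 tRNA genes of the minus strand, and yet mt-Ty, printed above, had 0 to 3 counts per library beside 197 to 1333 for mt-Tc. Intact tRNAs are short, between 59 and 75 bases here, and the sources used here do not give a size selection. mt-Tc had 635, 679, 692 and 534 counts in lean midpoint, 686, 1333, 771, 730 and 811 in obese midpoint, 197, 521, 445 and 599 in lean endpoint, and 578, 721, 665, 752 and 536 in obese endpoint. The lowest value was again lean endpoint replicate 1, in which mt-Rnr1 and mt-Nd6 were highest.

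Groups were compared by edgeR's quasi-likelihood test on the 16352 genes that its low-count filter kept, with Benjamini-Hochberg adjustment at 0.05. Of the 37 members 18 passed the filter: both rRNAs, 12 of 13 protein-coding genes (all but mt-Atp8) and 4 of 22 tRNA genes. Fold changes below are log2 differences of normalized counts with standard errors (SE), relative to the bulk of all genes rather than to the total, so they differ from ratios of shares.

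At midpoint mt-Rnr2 and mt-Atp6 were lower and the tRNA genes mt-Tc and mt-Tn were higher in obese than in lean mice, and these calls depended on single libraries. mt-Rnr2 held 4.87%, 5.31%, 5.65% and 5.34% of all counts in lean libraries and 4.07%, 2.31%, 2.76%, 3.50% and 3.11% in obese libraries, without overlap. Its log2 fold change was -0.59 ± 0.19 (SE, adjusted p = 0.0331 by edgeR). mt-Atp6, at 18, 52, 53 and 17 counts in lean and 15, 8, 7, 20 and 19 counts in obese libraries, was lower by the same test (-1.08 ± 0.38, adjusted p = 0.0415 by edgeR), and its groups overlapped. mt-Tc (0.76 ± 0.26, adjusted p = 0.0365 by edgeR) and mt-Tn (0.79 ± 0.26, adjusted p = 0.0335 by edgeR) were higher, and both overlapped between hosts in CPM. Without obese midpoint replicate 2 their log2 fold changes were 0.44 and 0.45 and neither passed. These 4 of 18 members compare with 29.5% of all genes called, 16.7% higher and 12.8% lower. The median of the 18 members was -0.00 and that of all genes -0.00.

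The other members did not pass at midpoint. mt-Co2 and mt-Co3 had log2 fold changes of -1.05 ± 0.45 and -0.84 ± 0.45 (SE), mt-Co1 of -0.36 ± 0.23, and mt-Rnr1 of -0.41 ± 0.55. mt-Nd1 (0.50 ± 0.29) and mt-Nd4l (0.92 ± 0.42) were on the positive side, mt-Nd6 was at -0.21 and mt-Tl1 at 0.39, and mt-Nd2, mt-Nd3, mt-Nd4, mt-Nd5, mt-Cytb and mt-Tp lay between -0.06 and 0.09. The midpoint count of 4 was 0 when lean midpoint replicate 2 or 3 or obese midpoint replicate 2 or 3 was left out, and when the 2 midpoint groups were fitted alone. In each of these 5 fits 0% of all genes were called, so the loss was not particular to chrM.

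At endpoint no member differed between hosts by edgeR's quasi-likelihood test, as was the case for nearly all genes (0.00612% called). Of the 18 members 7 had an unadjusted p under 0.05 by edgeR, but 0 did without lean endpoint replicate 1. The share of all genes under that p is not given here. DESeq2 and limma-voom also called 0, with 2 and 0 members under an unadjusted p of 0.05. DESeq2 gave no adjusted p for mt-Rnr1 and mt-Nd6, so its count does not cover them. The largest differences were those of mt-Rnr1 (-1.82 ± 0.55, SE) and mt-Nd6 (-1.55 ± 0.52), and both rested on lean endpoint replicate 1: without it they were 0.11 and 0.26. mt-Nd1 was at -0.83 ± 0.28 with that library and -0.29 without it, and mt-Rnr2 was at 0.01 ± 0.19 and 0.19.

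In lean mice 10 of 18 members rose from midpoint to endpoint and none fell, against 30.9% of all genes called, 21.4% higher and 9.5% lower, without the offset for composition described below. Both rRNAs rose, mt-Rnr1 by 2.78 ± 0.62 (SE, adjusted p = 0.00248 by edgeR) and mt-Rnr2 by 1.71 ± 0.21 (adjusted p = 0.000174 by edgeR). So did the complex IV genes mt-Co1 (0.95 ± 0.24), mt-Co2 (1.83 ± 0.46) and mt-Co3 (1.45 ± 0.45) and the ATP synthase gene mt-Atp6 (1.77 ± 0.38). mt-Cytb (0.73 ± 0.27) and the complex I genes mt-Nd2 (0.95 ± 0.32), mt-Nd5 (0.88 ± 0.30) and mt-Nd6 (1.82 ± 0.56) rose too. mt-Co2, mt-Co3 and mt-Atp6 belong to the nearly empty stretch described above, so their levels are uncertain. Without lean endpoint replicate 1, when 23% of all genes were called, the calls fell from 10 to 4: mt-Rnr2 (1.51), mt-Rnr1 (0.82), mt-Atp6 (1.44) and mt-Co2 (1.22, adjusted p = 0.0496 by edgeR). In that library mt-Nd6 had 64871 counts against 9005 to 10307 in the other 3 lean endpoint libraries, and without it the log2 fold change of mt-Nd6 was -0.01.

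In obese mice 6 of 18 members rose and 2 fell, against 73.9% of all genes called, 37.8% higher and 36.1% lower. mt-Rnr2 rose by 2.31 ± 0.19 (SE, adjusted p = 2.55e-07 by edgeR) and mt-Rnr1 by 1.37 ± 0.53 (adjusted p = 0.0246 by edgeR). The complex IV genes mt-Co1 (1.15 ± 0.22), mt-Co2 (1.99 ± 0.43) and mt-Co3 (1.85 ± 0.43) and mt-Atp6 (2.11 ± 0.36) rose as well. As in lean mice, the levels of mt-Co2, mt-Co3 and mt-Atp6 are uncertain. mt-Co1 held 1.13%, 1.12%, 0.673%, 1.1% and 1.43% of all counts at midpoint and 2.54%, 2.30%, 2.38%, 2.31% and 2.04% at endpoint, without overlap. mt-Nd1 fell by 0.65 ± 0.27 (adjusted p = 0.0344 by edgeR), from 0.374%, 0.559%, 0.336%, 0.424% and 0.513% of all counts to 0.292%, 0.264%, 0.333%, 0.217% and 0.256%, also without overlap. The call of mt-Nd1 was lost without a low-count filter (adjusted p = 0.0555 by edgeR), with chrM and Rn7sk out of the library sizes (adjusted p = 0.068 by edgeR), and when obese midpoint replicate 2 or 5 or obese endpoint replicate 2, 4 or 5 was left out, with a log2 fold change of -0.47 to -0.64 in these 5 fits. The call of mt-Rnr1 was lost without obese endpoint replicate 5 (1.23, adjusted p = 0.0559 by edgeR). mt-Tn fell by 0.81 ± 0.24 (adjusted p = 0.0051 by edgeR), with 398 to 874 counts at midpoint and 313 to 359 at endpoint, and a slight overlap in CPM. mt-Nd2, mt-Nd4, mt-Nd5, mt-Nd6 and mt-Cytb had fold changes of 0.15 to 0.54 that did not pass. Of these, mt-Nd5 passed under several other settings, among them DESeq2 (0.60), limma-voom (0.52) and the fit of the compared groups alone (0.54).

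The difference between hosts in the change with time, the diet by time interaction, passed for 0 of 18 members and for 0% of all genes by edgeR. An unadjusted p under 0.05 was found for 4 members, and the share of all genes under it is not given here. The lowest adjusted p among members was that of mt-Nd1 (-1.33 ± 0.40, SE, adjusted p = 0.0983 by edgeR), which had a log2 fold change of 0.68 ± 0.30 in lean mice. The interaction depended on the method for all genes: DESeq2 called 1 member and 10.3% of all genes, and limma-voom 2 members and 31.3%.

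Levels of nuclear genes moved with base composition across libraries. Whether the members' own fold changes followed their GC content was not tested. The 18 tested members have a GC content of 33% to 44.8%, against a median of 49.9% among tested nuclear genes. For each library, log2 levels of nuclear genes were taken as differences from their mean over the 18 libraries and regressed on GC content. Such slopes compare libraries with each other and do not give the trend within a library. They were positive at midpoint (0.106 to 0.444 per 10 points of GC in lean and 0.325 to 1.52 in obese libraries). At endpoint they were negative (-0.874 to -0.0637 and -0.878 to -0.421), so GC-poor nuclear genes had relatively higher levels at endpoint than at midpoint. The 1410 nuclear genes between 31.9% and 41.1% GC, the range of the rRNA and protein-coding members, had a median log2 fold change of -0.63 between hosts at midpoint, 1.51 with time in lean mice and 2.56 with time in obese mice. The members' medians were 0.91 with time in lean mice and 0.31 in obese mice, below those of nuclear genes of like composition.

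With an offset for GC content and length, estimated per library from nuclear genes, the calls changed. At midpoint none of the 18 members passed, beside 3.68% of all genes called higher and 3.39% lower, and mt-Rnr2 was at -0.01. In lean mice mt-Rnr2 was the only member called higher with time (0.52, adjusted p = 0.015 by edgeR), and mt-Nd3 (-0.84), mt-Tc (-1.23) and mt-Tn (-1.1) were called lower, beside 20% of all genes higher and 5.92% lower. In obese mice 10 members were called, all of them lower, beside 38.6% of all genes higher and 17.1% lower: mt-Nd1 (-2.73), mt-Nd2 (-2.04), mt-Nd3 (-1.60), mt-Nd4 (-1.86), mt-Nd4l (-1.41), mt-Nd5 (-1.58), mt-Nd6 (-1.58), mt-Cytb (-1.66), mt-Tc (-1.85) and mt-Tn (-2.21). The rRNAs, complex IV genes and mt-Atp6 did not pass there, with mt-Rnr2 at 0.14, mt-Rnr1 at -0.80 and mt-Co1 at -0.60. mt-Nd1 and mt-Tn were called lower in obese mice with and without the offset. mt-Tc and mt-Nd4l were also negative in both fits (-0.47 and -0.17 without it) but passed only with it. The offset moved the median of all genes to 0.19 with time in lean and 0.29 in obese mice, so mt-Rnr2 at 0.14 in obese mice was below it, and 9 of the 18 members lie below the first percentile of nuclear GC content (36.7%), where the offset was held constant.

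**Figure D3:**
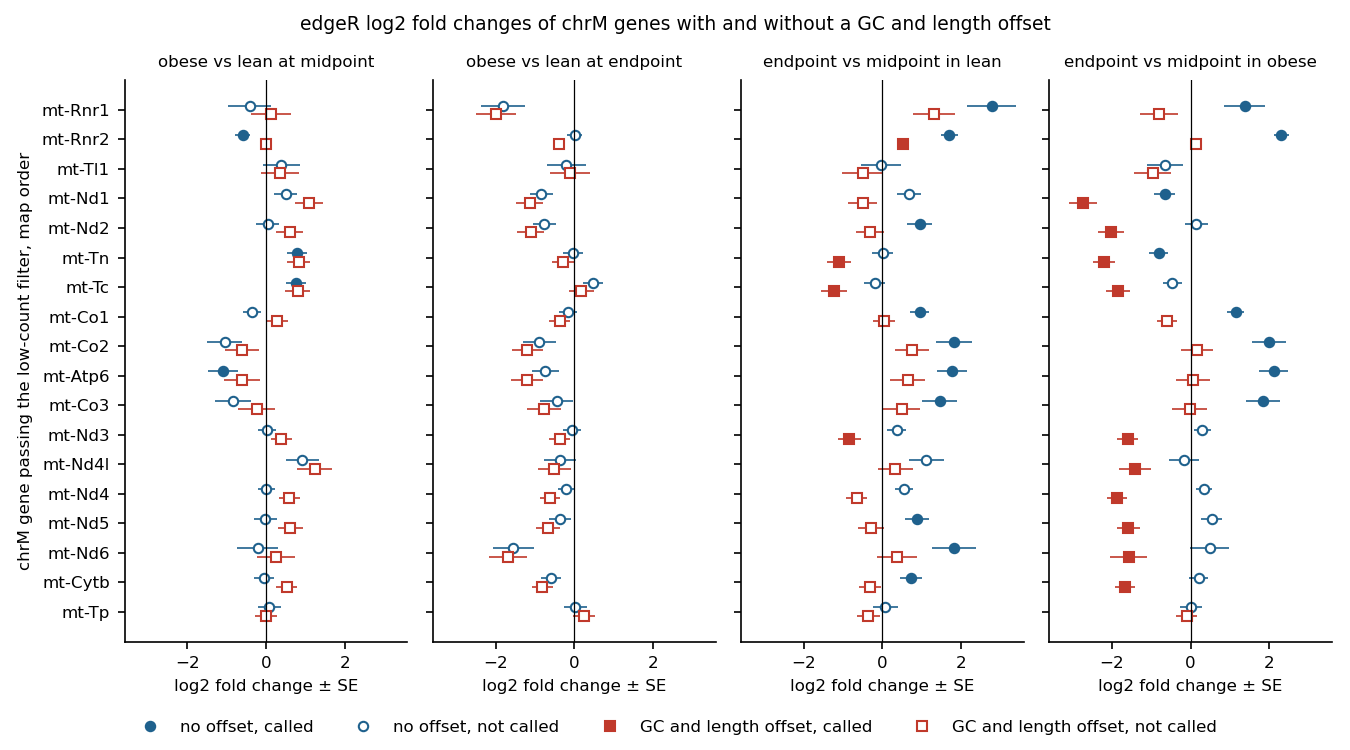
edgeR log2 fold changes (x axis, with SE) of the 18 tested chrM genes in map order for 4 comparisons, without an offset (circles) and with the GC and length offset (squares); filled symbols passed an adjusted p of 0.05. With time in obese mice 6 genes are called higher and 2 lower without the offset, and 10 lower with it.

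Ratios between members of the same library do not depend on the scaling of libraries, so 4 ratios were compared. Each test permuted the libraries of a pair of groups exhaustively (exact, two-sided, on the difference of means), and p-values were adjusted over 16 tests. The log2 ratio of mt-Rnr2 to mt-Rnr1, which lie on both sides of the tRNA gene mt-Tv, was 0.97 ± 0.28 in obese midpoint (SD, n = 5) and 1.88 ± 0.32 in obese endpoint (SD, n = 5), an increase of 0.91 with no overlap (exact permutation p = 0.00794, adjusted p = 0.0423). This p is the smallest that 5 libraries against 5 can give. In lean mice the ratio was 1.11, 1.01, 0.90 and 1.66 at midpoint and -1.20, 1.75, 1.86 and 1.82 at endpoint. The negative value is that of replicate 1, the only library in which mt-Rnr1 exceeded mt-Rnr2. The mean difference was -0.11 with it (exact permutation p = 1, adjusted p = 1) and 0.64 without it (exact permutation p = 0.0571, adjusted p = 0.131).

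The ratio of mt-Rnr2 to mt-Nd1, which lie next to each other apart from a tRNA gene, moved most. Its log2 value was 3.50, 4.16, 3.77 and 4.22 in lean midpoint, 3.44, 2.05, 3.04, 3.05 and 2.60 in obese midpoint, 4.38, 4.85, 5.45 and 5.47 in lean endpoint, and 5.74, 5.29, 5.31, 6.35 and 5.97 in obese endpoint. The groups did not overlap with time in either host or between hosts at midpoint, and overlapped between hosts at endpoint. The increase with time was 2.90 in obese mice (exact permutation p = 0.00794, adjusted p = 0.0423) and 1.12 in lean mice (exact permutation p = 0.0286, the smallest that 4 against 4 can give, adjusted p = 0.0914). At midpoint the ratio was 1.08 lower in obese mice on the log2 scale, a difference of -1.08 (exact permutation p = 0.0159, adjusted p = 0.0635), and at endpoint the difference was 0.69 (exact permutation p = 0.0794, adjusted p = 0.181).

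The ratio of mt-Cytb to mt-Nd1, messenger RNAs of the same strand, rose by 0.84 with time in obese mice, from -0.39 ± 0.33 to 0.44 ± 0.22 (SD, n = 5 each, exact permutation p = 0.00794, adjusted p = 0.0423), and its difference in lean mice was 0.07 (exact permutation p = 0.571, adjusted p = 0.703). The ratio of mt-Nd6 to mt-Nd5, whose genes overlap on opposite strands, did not pass in any comparison, with differences of -0.21 between hosts at midpoint, -0.47 at endpoint, 0.22 with time in lean and -0.03 in obese mice. Without lean endpoint replicate 1 the difference between hosts at endpoint was -0.03 and that with time in lean mice turned to -0.22. It was -1.01 in lean endpoint replicate 1 and between -3.22 and -2.39 in all other libraries. Without knowing whether counting used the strand, reads of mt-Nd6 and of the overlapping end of mt-Nd5 cannot be told apart, and the same holds for a tRNA gene and the precursor RNA of the other strand. Whether the hosts differed in the change of any ratio was not tested.

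**Figure D4:**
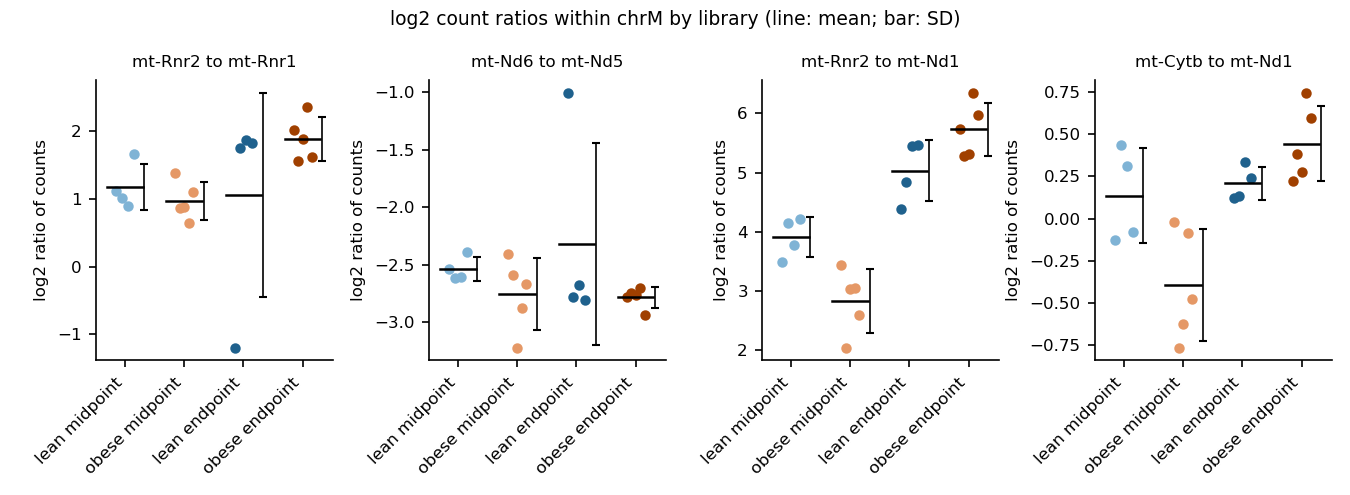
log2 ratios of counts of 4 pairs of chrM genes by library (1 point per library, y axis in log2 units, different ranges), with the group mean as a line and the SD as a bar. mt-Rnr2 to mt-Nd1 is higher in all endpoint libraries than in the midpoint libraries of the same host, and lean endpoint replicate 1 lies apart for mt-Rnr2 to mt-Rnr1 (-1.20) and mt-Nd6 to mt-Nd5 (-1.01).

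The nuclear genes of the same complexes were mostly higher in obese mice at midpoint and mostly lower at endpoint than at midpoint in obese mice. At midpoint 48 of 76 tested nuclear subunits of complexes I to V were higher in obese than in lean mice and 1 was lower (median 0.57), beside the 16.7% and 12.8% of all genes. By complex, 24 of 36 complex I subunits, 2 of 4 of complex II, 6 of 9 of complex III, 6 of 11 of complex IV and 10 of 16 of complex V were higher. Ndufv1, which carries the NADH-binding site of complex I, was higher by 0.88 ± 0.22 (SE), the complex III core protein Uqcrc1 by 0.90 ± 0.23, the complex IV subunit Cox5b by 0.76 ± 0.21 and Atp5d of ATP synthase by 0.88 ± 0.24 (adjusted p = 0.0304 each by edgeR). With the GC and length offset 20 of 76 were higher and 1 lower, beside 3.68% and 3.39% of all genes. The midpoint calls of these subunits share the limit given above, since no gene of any kind was called without lean midpoint replicate 2 or 3 or obese midpoint replicate 2 or 3, or with the midpoint groups alone.

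With time in obese mice 67 of the 76 nuclear subunits fell and 3 rose (median -1.14), beside 36.1% and 37.8% of all genes, while no chrM rRNA, complex IV or ATP synthase gene fell. Cox4i1 of complex IV fell by 1.62 ± 0.22 (SE), Uqcrc1 by 1.55 ± 0.22, Ndufa9 of complex I by 1.41 ± 0.18, Sdhc of complex II, which has no mitochondrially encoded subunit, by 1.1 ± 0.15, and the catalytic ATP synthase subunit Atp5b by 1.23 ± 0.18. In lean mice 21 fell and 1 rose (median -0.42), beside 9.5% and 21.4% of all genes. The nuclear subunits have a median GC content of 50.2%, and with the offset 48 fell and 5 rose in obese mice (17.1% and 38.6% of all genes) and 17 fell and 2 rose in lean mice (5.92% and 20%). With time in obese mice 33 of 36 nuclear complex I subunits fell, and so did mt-Nd1, whereas mt-Nd2, mt-Nd4, mt-Nd5 and mt-Nd6 were on the positive side without passing, and all of these were called lower with the offset. The signs of mt-Co1, mt-Co2 and mt-Co3 were opposite to those of the nuclear complex IV subunits, of which 9 of 11 fell. For mt-Co1 and mt-Co3 this held only without the offset. mt-Co2 and mt-Co3 had 4 to 168 and 7 to 66 counts per library, and nearly all of their 50-base words have nuclear copies. Their levels, and so their signs, are uncertain.

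Genes that act on the mitochondrial genome and its RNA were mixed. Of 20 tested genes of mtDNA transcription and replication, 3 rose and 0 fell with time in lean mice, and 9 rose and 7 fell in obese mice. Of all genes, 21.4% rose and 9.5% fell in lean and 37.8% rose and 36.1% fell in obese mice, so the share called in obese mice was near that of all genes (73.9%). Tfb2m, the transcription initiation factor, rose by 1.73 ± 0.31 (SE) in lean and 2.57 ± 0.29 in obese mice, and the transcription termination family members Mterf3 and Mterf2 rose by 1.53 ± 0.31 and 1.24 ± 0.37 in lean and by 2.49 ± 0.28 and 2.92 ± 0.35 in obese mice. Polrmt, the mitochondrial RNA polymerase, was higher in obese mice at midpoint (0.93 ± 0.25), when Mterf1a (-1.59 ± 0.34) and Mterf2 (-1.30 ± 0.36) were lower. 3 genes of this list were higher and 5 lower in that comparison, beside 16.7% and 12.8% of all genes. Tfb2m, Mterf1a, Mterf2 and Mterf3 have a GC content of 41.0% to 43.0%, and Polrmt one of 60.5%.

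Among 24 genes of mitochondrial RNA processing, stability and decay, 12 rose and 9 fell with time in obese mice, 6 rose and 2 fell in lean mice, and 6 were higher and 11 lower in obese mice at midpoint, when 29.5% of all genes were called. With the GC and length offset, 12 rose and 5 fell with time in obese mice, beside 38.6% and 17.1% of all genes. The list spans 39.6% to 57.4% GC. Fold changes of single genes below are without the offset, and the GC-poor nuclear genes described above had a median of 2.56 with time in obese mice. Trmt10c, a subunit of the RNase P that cuts tRNA 5′ ends, rose by 2.44 ± 0.38 (SE) in lean and 3.73 ± 0.36 in obese mice, and Pnpt1, a polynucleotide phosphorylase, by 1.84 ± 0.34 and 3.09 ± 0.32. Hsd17b10, another subunit of that RNase P, fell by 1.46 ± 0.20 in obese mice. Lrpprc, which stabilizes mitochondrial messenger RNAs, was lower in obese mice at midpoint (-1.09 ± 0.29), and Elac2, which cuts tRNA 3′ ends, was higher (0.55 ± 0.15). Of 26 genes of tRNA and rRNA modification, 8 rose and 15 fell with time in obese mice. In lean mice 4 rose and 3 fell, and at midpoint 5 were higher and 4 lower in obese mice. With the GC and length offset, 10 of them rose and 3 fell with time in obese mice, beside 38.6% and 17.1% of all genes. Without the offset, 73.9% of all genes were called with time in obese mice. In lean mice 30.9% were called (21.4% higher and 9.5% lower), and the shares of this list and the previous one called there were near 30.9%. Trnt1, which adds the CCA end to tRNAs, rose by 2.16 ± 0.38 in lean and 3.13 ± 0.35 in obese mice. Of 8 tested regulators of mitochondrial biogenesis, Gabpa, a subunit of nuclear respiratory factor NRF2, rose by 2.12 ± 0.33 in lean and 3.13 ± 0.31 in obese mice and was lower in obese mice at midpoint (-0.87 ± 0.31), and Esrra, an estrogen-related receptor, was higher at midpoint (0.87 ± 0.27) and fell by 1.12 ± 0.25 with time in obese mice. Between hosts at endpoint, no gene of the 9 lists passed by edgeR.

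**Figure D5:**
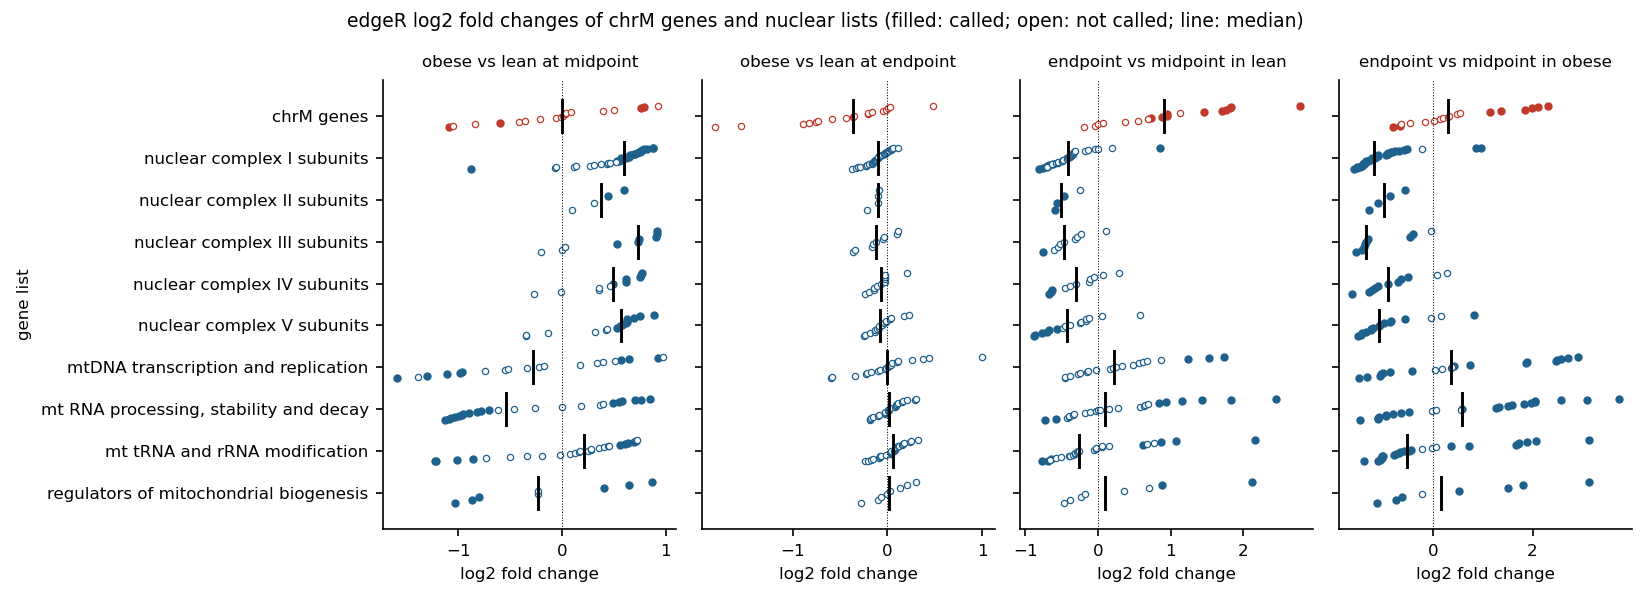
edgeR log2 fold changes (x axis, without an offset, ranges differ between panels) of the 18 tested chrM genes and of 9 nuclear gene lists in 4 comparisons, 1 point per gene, filled where the adjusted p was below 0.05, with the list median as a line. With time in obese mice the medians of all 5 lists of nuclear subunits are below 0 and that of the chrM genes is 0.31.

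Other abundant RNAs differed between the same libraries. Rn7sk, a nuclear RNA transcribed by RNA polymerase III, held 2.15% to 2.72% of all counts in lean midpoint, 2.15% to 6.68% in obese midpoint, 0.945% to 2.33% in lean endpoint and 0.999% to 1.76% in obese endpoint. It was highest in obese midpoint replicates 2, 3 and 5, which had the lowest shares of mt-Rnr2 and also the highest GC slopes (1.02 to 1.52). Taking chrM and Rn7sk out of the library sizes left 4, 0, 9 and 8 members called in the 4 comparisons in place of 4, 0, 10 and 8, beside 29.1%, 0.00612%, 31.1% and 73.5% of all genes. In obese mice with time the 8 were 7 higher and 1 lower in place of 6 and 2, since mt-Nd1 was no longer called (-0.53) and mt-Nd5 was (0.65). The part of Rn7sk, and of whatever set the GC slopes, in the chrM values was not tested beyond these settings.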

How the data were processed

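RNA was measured in sorted tumor cells of 4 groups. The authors deposited 1 table of whole-number counts per gene, which were not normalized. TopHat, DESeq and mm10 appear, without roles, in the submitters' processing notes. The sources used here give no counting tool, strand setting or treatment of reads with several origins. Members and gene lists were chosen with earlier results of these data known. Counts were fitted in R 4.3.3 with edgeR 4.0.16 (filterByExpr by group, TMM scaling, 1 mean per group over 18 libraries, quasi-likelihood test, Benjamini-Hochberg at 0.05) and tested on simulated data. DESeq2 1.42.0 and limma 3.58.1 were alternatives. The GC and length offset is a spline on nuclear genes, held constant beyond percentiles 1 and 99. Nuclear copies were searched as exact words of 50 bases in GENCODE transcripts. All chrM genes could be named; tRNA genes were given values if among the 3 highest per length or past the threshold, and lists by up to 4 members of smallest p. mt-Ty, Cd68, Ctss, Krt8, Arhgdib, Ptprc, Cd53, Cd48, Lcp1 and Rn7sk were named after their values were seen. Totals of 44174080 to 56996252 counts make counting error small except for genes with few counts.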

Additional observations from a re-analysis of the deposited data

Results flagged for a closer look

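A library was set apart from its group where its gap to the nearest other library exceeded the 95% limit of Dixon's ratio, over 104 groups of 4 or 5 values; chance alone sets apart about 1 group in 20, and 9 values were found, 4 of them in lean endpoint replicate 1. In that library mt-Rnr1 held 27.9% of all counts against 3.14% to 4.32% in the other 3, mt-Nd6 held 0.124% against 0.0172% to 0.0206%, the log2 ratio of mt-Rnr2 to mt-Rnr1 was -1.196 against 1.75 to 1.86, and that of mt-Nd6 to mt-Nd5 was -1.006 against -2.81 to -2.68.

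In obese endpoint replicate 5 mt-Rnr1 held 5.24% of all counts against 3.48% to 3.86%, and mt-Nd5 0.1794% against 0.137% to 0.149%. In obese midpoint replicate 3 mt-Nd6 held 0.01017% against 0.0170% to 0.0182%. The other 2 values belong to genes with few counts: mt-Co3 in lean endpoint replicate 3, at 7.274e-05% of all counts against 0.000111% to 0.000118%, and mt-Atp8 in obese midpoint replicate 2, at 1.198e-05% against 1.84e-06% to 4.01e-06%.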

How the results depend on the processing

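For the 18 tested members in 5 comparisons, 653 fold changes were recomputed under other settings than the GC and length offset and leaving out a library. Of these 607 were counted as kept, 28 lost and 18 gained a call and 0 reversed. A change of sign counted as kept where neither fit called the member. No member was called between hosts at endpoint in any of these settings, so that comparison counted as kept throughout. For the interaction only DESeq2 and limma-voom called any. The number of members called between hosts at midpoint (4 of 18 tested) was 1 of 29 tested without a low-count filter, when 3263 of 26248 genes were called. It was 0 with the compared groups alone (0 of 15200 genes) or the GC and length offset (1155 of 16352 genes), and 0 to 5 when 1 library was left out. With time in lean mice (10 of 18 tested, 5053 of 16352 genes) it was 6 of 12 tested with a filter of 5 CPM in 4 libraries (4466 of 10555 genes). That filter left mt-Co2, mt-Co3 and mt-Atp6 untested. It was 6 of 17 with the compared groups alone (5642 of 15252 genes) and 6 of 18 with the replicate block (3727 of 16352 genes). It was 4 with the offset (4243 of 16352 genes), and 4 to 12 when 1 library was left out. Without lean midpoint replicate 1 or 4 it was 5. The interaction count (0) was 1 by DESeq2 (10.3% of all genes), 2 by limma-voom (31.3% of all genes), and 0 to 2 when 1 library was left out (2 without obese midpoint replicate 1). The cause of these moves was not tested, except that leaving out libraries leaves fewer samples and the filter of 5 CPM leaves fewer members tested.

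The offset turned the fold change with time in lean mice of mt-Cytb to -0.32, mt-Nd2 to -0.33, mt-Nd3 to -0.84, mt-Nd5 to -0.29 and mt-Tn to -1.10, and in obese mice of mt-Co1 to -0.60, mt-Co3 to -0.027, mt-Cytb to -1.66, mt-Nd2 to -2.04, mt-Nd3 to -1.60, mt-Nd4 to -1.86, mt-Nd5 to -1.58, mt-Nd6 to -1.58 and mt-Rnr1 to -0.80. It called 6315 genes higher and 2797 lower with time in obese mice, against 6183 and 5908 without it. Leaving out 1 library gave fold changes of mt-Nd6 in lean mice from -0.0087 (without lean endpoint replicate 1) to 2.13 (without lean endpoint replicate 3). DESeq2 gave no adjusted p for mt-Rnr1 and mt-Nd6, which stay out of its counts.

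Without mt-Rnr1 and mt-Rnr2 the chrM share was 2.94% in lean midpoint, 2.31% in obese midpoint, 4.88% in lean endpoint and 4.12% in obese endpoint. With those rRNAs out of the denominator, the protein-coding share of chrM was 99.8%, 99.8%, 99.9% and 99.9% and the tRNA share 0.182%, 0.249%, 0.104% and 0.132%. The increases with time in obese mice lost the threshold (adjusted exact permutation p = 0.0635) when obese endpoint replicate 1, 3, 4 or 5 was left out; the differences over all left-out libraries were 0.80 to 1.02 for mt-Rnr2 to mt-Rnr1, 2.70 to 3.05 for mt-Rnr2 to mt-Nd1 and 0.74 to 0.93 for mt-Cytb to mt-Nd1.

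Correlations of same-numbered deviations ran from -0.40 to 0.55, with 6 of 24 over 0.1. Differently numbered samples were not compared, so whether replicate numbers pair the samples was not settled. Of 144 list counts under 4 other settings 118 stayed within 1.5 times. The 118 include all list counts between hosts at endpoint. Those were 0 in every setting, when at most 1 of 16352 genes was called, so they say nothing about stability. With the replicate block, calls between hosts at midpoint were 1 for complex II, 3 for complex IV and 6 for complex V, in place of 2, 6 and 10. Of all 16352 genes, 4392 were called there in place of 4825. With time in lean mice the calls were 5 for RNA processing, 4 for modification, 0 for complex II, 1 for complex IV and 1 for regulators. These stand in place of 8, 7, 3, 3 and 2, beside 3727 of all genes in place of 5053. RLE scaling gave 1 for complex II at midpoint (4698 of all genes called). With time in lean mice it gave 16 for complex I in place of 9, and 1 for regulators (5155 of all genes called). Sizes without chrM and Rn7sk gave 1 for complex II at midpoint (4762 of all genes) and 1 for regulators in lean mice (5092 of all genes). The offset gave, at midpoint, 4 for RNA processing, 4 for modification, 4 for transcription and 7 for complex I, in place of 17, 9, 8 and 25. It also gave 1 for complex II, 3 for complex III, 6 for complex V and 2 for regulators there, in place of 2, 6, 10 and 6. Of all genes 1155 were called there in place of 4825. With time in lean mice it gave 1 for complex II, 3 for complex III and 4 for regulators, in place of 3, 1 and 2 (4243 of all genes in place of 5053). In obese mice it gave 13 for modification (10 higher and 3 lower, in place of 8 and 15) and 22 for complex I in place of 35. Of all genes 9112 were called there in place of 12091.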

Other observations

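Summed fibroblast markers, of which Col3a1 held most, were 2846 to 3349.8 CPM in lean midpoint, 1421 to 3479 in obese midpoint, 1302 to 3234 in lean endpoint and 1866 to 3276 in obese endpoint. Adipocyte markers, most of them Fabp4, a fatty acid binding protein, summed to 7.56 to 11.9 CPM in lean midpoint, 3.93 to 9.27 in obese midpoint, 20.5 to 76.1 in lean endpoint and 11.8 to 27.1 in obese endpoint, while Adipoq, the adipocyte hormone, had at most 4 counts in any library. Endothelial markers summed to 5.04 to 20.1 CPM and erythroid markers to 1.09 to 14.2 CPM over the 18 libraries.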
